A study of Homo sapiens with 6 samples.

Results

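The membrane adenylyl cyclases are the enzymes that make cyclic AMP (cAMP) from ATP at the cell surface. All 9 human genes of the family, ADCY1 to ADCY9, were taken by symbol from a table of 35793 genes. They were compared between 2 genotypes of cardiomyocytes grown from induced pluripotent stem cells and harvested on day 15 of differentiation. The wild-type cells were of WTC11, an established human line. The STK25KO cells came from a WTC11 derivative made homozygous for a CRISPR/Cas9 knockout of STK25, a serine/threonine kinase; neither genotype received a treatment. Each genotype had 3 libraries, labelled as biological replicates. The knockout was a single derived line, so the edit and any other difference between the lines cannot be told apart.

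Receptors coupled to Gs raise cAMP by switching cyclases on, and receptors coupled to Gi lower it. The cyclases differ in what else they read. ADCY1, ADCY3 and ADCY8 are stimulated by calcium and calmodulin. ADCY2, ADCY4 and ADCY7 are stimulated by G protein beta-gamma subunits. ADCY5 and ADCY6 are inhibited by calcium and by Gi and are known as the main cyclases of the working heart muscle cell, where they carry the response to adrenaline. ADCY9 responds weakly to forskolin, the plant compound that activates the other membrane cyclases. ADCY1 and ADCY8 have also been described in pacemaker cells of the sinoatrial node, and ADCY3 in the primary cilium.

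Depth ran from 22443904 to 53224112 reads per library. STK25 itself checks the labels: it had 8119 ± 1168 normalized counts in the wild type and 3720 ± 251 in the knockout (SD, n = 3 each), which is -1.12 on the log2 scale (SE 0.19; limma adjusted p = 0.00903). Within each genotype 1 library stood apart. Chi-square per degree of freedom was 19.9 between wild-type replicates 1 and 3, but 174 and 362 for the pairs with wild-type replicate 2. It was 44.8 between knockout replicates 2 and 3, and 275 and 382 for the pairs with knockout replicate 1. The main results are therefore also given without these libraries. Both genotypes had the defining markers of cardiomyocytes: the 11 markers listed summed to between 1312140 and 1631670 normalized counts in the wild type and between 1850190 and 3364490 in the knockout. Most of that rise was MYL7: without it the sums were 869156 to 906289 and 989572 to 1040080. Of the 11 markers 2 passed the test, both lower in the knockout: NKX2-5, a heart transcription factor, at 21091 ± 2088 and 6444 ± 498 (SD, n = 3 each; limma adjusted p = 0.00135), and PLN, which restrains the calcium pump, at 55599 ± 5281 and 32697 ± 1500 (SD, n = 3 each; limma adjusted p = 0.0459). Of the 11, 6 had a fold change above 0 and 5 below, and DESeq2 called 8, against 20.7% of all tested genes. MYH7, at 93527 ± 43643 and 234627 ± 57181 (SD, n = 3 each), ACTN2, TNNI3, TTN and MYL7 were higher without overlap. MYH6 was lower without overlap, at 142436 ± 47695 and 62131 ± 7191 (SD, n = 3 each). None of these passed with limma, and the groups of 33.4% of all tested genes did not overlap. Other marker lists differed too. All 5 smooth muscle markers passed the test as higher in the knockout, with sums of 79383 to 89832 in the wild type and 491950 to 539638 in the knockout. Of 5 ventricular markers 3 passed as lower, among them MYL2, at 14793 ± 901 in the wild type and 176 ± 142 in the knockout (SD, n = 3 each). The other 2, MYL3 and LBH, had log2 fold changes of 0.54 and 0.06 and did not pass (limma adjusted p = 0.306 and 0.886). Of 6 atrial markers 1 passed as higher and 2 as lower, and of 8 fibroblast markers 3 passed as higher and 1 as lower. In bulk RNA, fewer cells of a type and less RNA per cell cannot be told apart, and the part of these marker differences in the results below was not tested.

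The cyclase genes are related closely enough that reads might be shared between them, so their sequences were compared first. The 26 bases below are the longest run that the coding sequences of ADCY5 and ADCY6 share without a difference. They lie late in both coding sequences, at bases 3304 to 3329 of 3783 in ADCY5 and 3028 to 3053 of 3504 in ADCY6, and are shown with the best ungapped match in each other member on a chromosome other than 8. Capitals mark bases that differ from ADCY5.
ADCY5: gagatcatcgctgactttgatgagat
ADCY6: gagatcatcgctgactttgatgagat
ADCY2: gagatcatcgctgactttgatgaTCt
ADCY1: gagatcatcgcCgactttgaCgagCt
ADCY4: gagatAatTgctgaTtttgatgagCt
ADCY7: gagatcatTgcCgacttCgaCgagCt
ADCY9: gagCtcatcgGGgactttgaCgagCt
ADCY3: gagCtcTtTgcCCGctttgaCAagCt
ADCY2 differed from ADCY5 at 2 of these bases, ADCY1 at 3, ADCY4 at 4, ADCY7 and ADCY9 at 5 each and ADCY3 at 9, where the best match lay in another part of the coding sequence. In GENCODE 29 on GRCh38 the run lies in coding exons at chr3:123289953-123291136 for ADCY5 and chr12:48770969-48771733 for ADCY6, both on the minus strand and both across an intron.

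Over all 36 pairs of members the longest identical run in the coding sequences was 13 to 37 bases, with a median of 20.0. In words of 31 bases, ADCY6 shared 0 of its 8573 words with any other member, and ADCY3, ADCY7 and ADCY8 also shared 0. ADCY5 shared 7 of its 8915 words with other members. Words shared with genes outside the family were more common. ADCY7 had 58.9% of its words to itself, since 3467 of 8815 words also occurred in BRD7, which overlaps it on the opposite strand. ADCY3 had 76.5% to itself, with 1411 of 6267 words also in CENPO, likewise on the opposite strand. The share was at least 90.5% in every other member. Reads of ADCY7 and ADCY3 are therefore the least certain of the family, because whether strand was used is not given in the sources used here.

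Levels of different genes were compared as normalized counts per kilobase of transcript, with the median length over each gene's coding transcripts. ADCY5 and ADCY6 were the most abundant cyclases in both genotypes. In the wild type ADCY5 had 801 ± 266 and ADCY6 441 ± 79.8 normalized counts per kilobase (SD, n = 3 each). In the knockout they had 634 ± 110 and 238 ± 44.1 (SD, n = 3 each). Their ranges did not overlap within either genotype, although with the longest transcript as length those of the wild type did. ADCY1 ranked next with this length, ahead of ADCY9 at 51.9 ± 25.1 in the wild type and 76.9 ± 18.1 in the knockout (SD, n = 3 each).

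The place of ADCY1 depended on the length used. Its 3 coding transcripts have a median of 1693 bases and a longest of 12503. It ranked 3 of 9, at 144 ± 7.21 normalized counts per kilobase in the wild type (SD, n = 3), with the median length, but 5 of 9, at 19.6 ± 0.977, with the longest (SD, n = 3). ADCY7, ADCY3, ADCY2, ADCY8 and ADCY4 came lower, from 30.6 ± 14.4 down to 5.82 ± 2.96 normalized counts per kilobase in the wild type (SD, n = 3 each). From ADCY9 down, each overlapped its neighbour in the order of the wild type. In the knockout ADCY8 came last, at 0.912 ± 0.962 (SD, n = 3), and did not overlap ADCY4 above it, at 9.13 ± 3.72 (SD, n = 3).

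**Figure D1:**
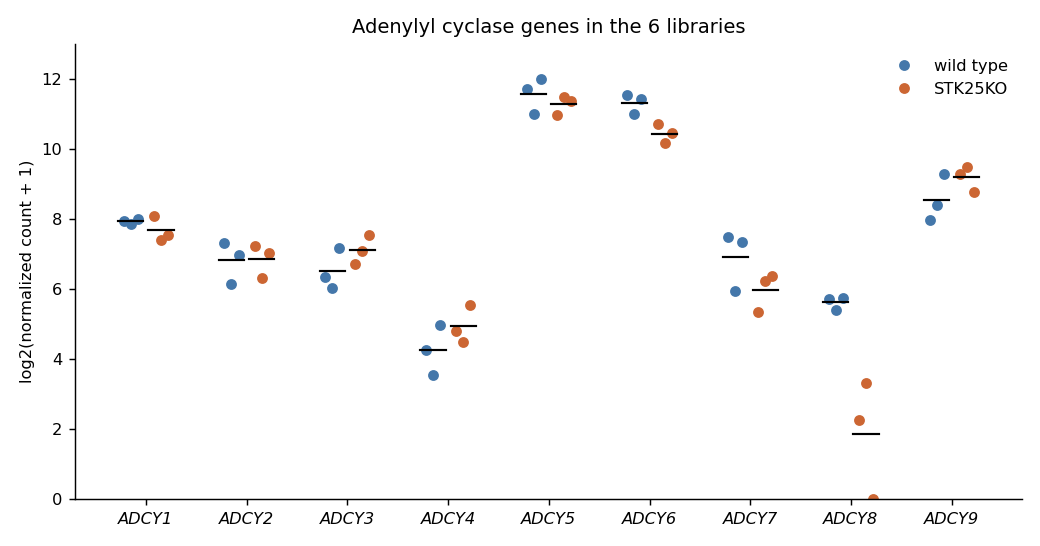
Normalized counts of the 9 adenylyl cyclase genes on a log2(value + 1) scale, 1 point per library, wild type in blue and STK25KO in orange, with black bars at group means of the plotted values. ADCY5 and ADCY6 lie far above the others, and only ADCY6 and ADCY8 have groups that do not overlap.

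The question for each gene was whether its level differed between the genotypes beyond the spread of the replicates. Of the 9 members, all of which reached the mean of 10 normalized counts required for testing, 2 passed (22.2%), ADCY6 and ADCY8, and both were lower in the knockout. Over all 15536 tested genes 12.8% passed, 5.97% as higher and 6.79% as lower. DESeq2 called both members, against 20.7% of all genes, edgeR called ADCY6 alone, against 12.0% of all genes, and 2 members had an unadjusted limma p under 0.05, against 27.5%. The members' median log2 fold change was -0.27, against 0.0052 over all genes tested, with 4 members above 0 and 5 below. The groups of ADCY6 and of ADCY8 did not overlap, nor did those of 33.4% of all tested genes.

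ADCY6, on chromosome 12 (48766194 to 48789037, minus strand, ENSG00000174233.11), had 2965, 2066 and 2745 normalized counts in wild-type replicates 1, 2 and 3. The knockout replicates had 1664, 1146 and 1394. Every knockout library lay below every wild-type library. The knockout mean was 54.1% of the wild-type mean. On the log2 scale the difference was -0.89 (SE 0.23; 95% interval from -1.42 to -0.35; limma adjusted p = 0.0433). edgeR's quasi-likelihood test gave -0.90 (adjusted p = 0.0427). The call was lost without wild-type replicate 1 (adjusted p = 0.182), wild-type replicate 3 (0.146), knockout replicate 2 (0.127) or knockout replicate 3 (0.133), where the fold change ran from -0.89 to -0.75. It was also lost with no filter on low values (limma adjusted p = 0.0539) and with eBayes without a trend (0.0808). Without wild-type replicate 2 and knockout replicate 1, the libraries that stood apart, it was -1.17 (limma adjusted p = 0.00104). In that fit, chosen after seeing the data, 28.9% of all genes passed, against 12.8% with all libraries. With all libraries scaled to equal totals the median of all genes moved to -0.27, and relative to that median ADCY6 was at -0.89.

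ADCY5, the closest relative of ADCY6 in this group (chromosome 3, 123282296 to 123449758, minus strand, ENSG00000173175.14), did not pass. It had 3361, 2040 and 4123 normalized counts in the wild type, against 2022, 2862 and 2656 in the knockout. The groups overlapped through wild-type replicate 2, which lay among the knockout libraries, and the other wild-type libraries lay above them. The log2 fold change was -0.29 (SE 0.29, limma adjusted p = 0.578), and its interval from -0.97 to 0.38 includes values as low as that of ADCY6. The fold change without the libraries that stood apart was -0.43 (limma adjusted p = 0.0554).

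Whether ADCY5 and ADCY6 moved apart was tested on their ratio within each library, which no scaling of libraries can move. Per kilobase, ADCY5 was 1.68, 1.46 and 2.23 times ADCY6 in wild-type replicates 1, 2 and 3, and 1.80, 3.71 and 2.83 times in the knockout replicates. Knockout replicate 1 lay within the wild-type range and the other knockout libraries above it. The log2 ratio was higher in the knockout by 0.59, from 0.82 ± 0.31 to 1.41 ± 0.53 (SD, n = 3 each; exact two-sided permutation p = 0.2, where 0.1 is the smallest this design allows). The overlap was between knockout replicate 1 and wild-type replicate 3 only, at 1.80 and 2.23 times. Without knockout replicate 1 the difference was 0.88 (exact two-sided permutation p = 0.2). Without wild-type replicate 2 as well it was 0.74 (exact two-sided permutation p = 0.333). None of these designs can reach 0.05, so the test leaves the difference undecided. ADCY5 exceeded ADCY6 in 6 of 6 libraries with the median transcript length and in 5 of 6 with the longest.

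ADCY8, a calcium-stimulated cyclase on chromosome 8 (130780301 to 131042426, minus strand, ENSG00000155897.9), showed the largest fold change of the family. It had 51.4, 41.1 and 52.3 normalized counts in the wild-type libraries. The knockout libraries had 3.81, 8.92 and 0. In reads these were 34, 54 and 82 against 3, 8 and 0, and 0 reads in knockout replicate 3 allow up to 2.67 normalized counts, counting error only. The groups were far apart, and the knockout mean was 8.79% of the wild-type mean. On the log2 scale the difference was -3.76 (SE 0.91), with a wide interval from -5.86 to -1.65 (limma adjusted p = 0.0337). The gene passed the filter on low values through the wild type alone, whose mean was 48.3, against 4.24 in the knockout.

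At these counts the size of the ADCY8 difference depended on the pseudocount, at -4.98 with 0.1 and -2.08 with 10 on the log2 scale. The call was lost with a pseudocount of 0.1 (limma adjusted p = 0.0965), with quantile normalization (0.0502), and with edgeR (adjusted p = 0.0623), while DESeq2 kept it (adjusted p = 0.00287). It was also lost without wild-type replicate 1 (0.125), 2 (0.0759) or 3 (0.120) or knockout replicate 3 (0.0538). Without both libraries that stood apart the difference was -4.07 (limma adjusted p = 0.0226), in the fit where 28.9% of all genes passed. Sinoatrial node markers, the cells in which ADCY8 has been described, summed to 3228 to 3706 normalized counts in the wild type and 8960 to 10962 in the knockout, and of 5 tested 1, ISL1, passed as higher and 1, VSNL1, as lower. The higher sum was ISL1, at 567 ± 187 and 7817 ± 1001 (SD, n = 3 each). Without it the sums were 2446 to 3265 in the wild type and 2101 to 2339 in the knockout. Most of that remainder was HCN4, at 2196 ± 398 and 1407 ± 165 (SD, n = 3 each). TBX3, at 275 ± 26.8 and 516 ± 141, and TBX18, at 109 ± 43.3 and 244 ± 50.5, were higher without overlap (SD, n = 3 each). Neither passed (limma adjusted p = 0.0871 and 0.0898). Of the 5 tested markers 3 had a fold change above 0 and 2 below, and DESeq2 called all 5. The part of these markers in the ADCY8 result was not tested.

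**Figure D2:**
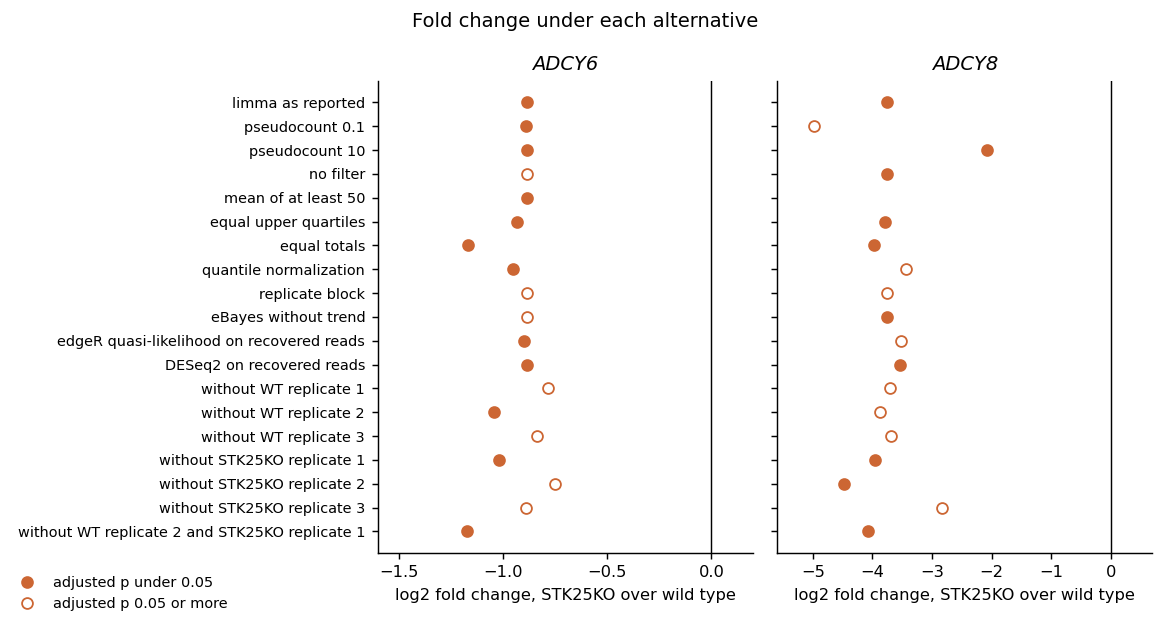
Log2 fold change of ADCY6 (left) and ADCY8 (right), STK25KO over wild type, under the reported limma fit and each alternative on the vertical axis; filled points had an adjusted p under 0.05. Every point lies below 0, from -1.17 to -0.75 for ADCY6 and from -4.98 to -2.08 for ADCY8, while the call is lost in many settings.

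The other calcium-stimulated cyclases did not pass. ADCY1 (chromosome 7, 45574140 to 45723116, plus strand), best known from neurons, had 246, 232 and 256 normalized counts in the wild type and 268, 167 and 187 in the knockout. The wild-type libraries were tight, and the knockout libraries lay on both sides of them. The log2 fold change was -0.27, with an interval from -0.93 to 0.40 (limma adjusted p = 0.611). ADCY3 (chromosome 2, 24819169 to 24919839, minus strand) had 80.1, 64.0 and 144 normalized counts in the wild type and 104, 134 and 185 in the knockout. Wild-type replicate 3 lay within the knockout range. Its log2 fold change was 0.60, from -0.37 to 1.57 (limma adjusted p = 0.412). CENPO, which overlaps it, had a log2 fold change of 0.66 (limma adjusted p = 0.168).

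Of the cyclases stimulated by beta-gamma subunits, none passed with limma. ADCY7 (chromosome 16, 50246137 to 50318135, plus strand), a cyclase prominent in blood cells, had 177, 60.9 and 160 normalized counts in the wild type and 39.4, 73.6 and 81.8 in the knockout. Wild-type replicate 2 fell within the knockout range, and the other wild-type libraries lay above it. The log2 fold change was -0.94, from -2.16 to 0.27 (limma adjusted p = 0.296). Without wild-type replicate 2 and knockout replicate 1 it was -1.11 and passed (limma adjusted p = 0.0483), in a fit of 4 libraries where 28.9% of all genes passed. BRD7, which shares words with it, had a log2 fold change of -0.41 (limma adjusted p = 0.209). The blood markers listed were low in both genotypes, with sums of 128 to 542 normalized counts in the wild type and 302 to 554 in the knockout, and 0 of the 4 tested passed with limma, with edgeR, with DESeq2 or at an unadjusted p under 0.05.

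ADCY2 (chromosome 5, 7396208 to 7830081, plus strand), a cyclase of brain, had 159, 70.1 and 124 normalized counts in the wild type and 147, 78.0 and 130 in the knockout. The groups covered almost the same range. Neural markers summed to 77.2 to 132 normalized counts in the wild type and 486 to 835 in the knockout, and 3 of 6 tested passed as higher; their part in ADCY1 and ADCY2 was not tested. The log2 fold change of ADCY2 was 0.04, from -0.96 to 1.04 (limma adjusted p = 0.972). It turned negative with equal upper quartiles (-0.011), equal totals (-0.24) and edgeR (-0.0016). ADCY4 (chromosome 14, 24318349 to 24335093, minus strand), known from endothelial cells, was near the lower limit of the test. It had 18.1, 10.7 and 30.6 normalized counts in the wild type and 26.7, 21.2 and 45.3 in the knockout, with overlap between the groups. Its log2 fold change was 0.67, from -0.72 to 2.06 (limma adjusted p = 0.529). Endothelial markers were also low, with sums of 173 to 477 in the wild type and 418 to 584 in the knockout. Of the 4 tested, 0 passed with limma, edgeR or DESeq2, and 1 had an unadjusted p under 0.05.

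ADCY9 (chromosome 16, 3953387 to 4116185, minus strand) had 249, 334 and 620 normalized counts in the wild type and 628, 713 and 440 in the knockout. Wild-type replicate 3 lay within the knockout range and the other wild-type libraries below it. The log2 fold change was 0.64, from -0.23 to 1.51 (limma adjusted p = 0.323). For the 7 members that did not pass, the intervals include 0, and none is narrow enough to show that the genotypes were alike.

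**Figure D3:**
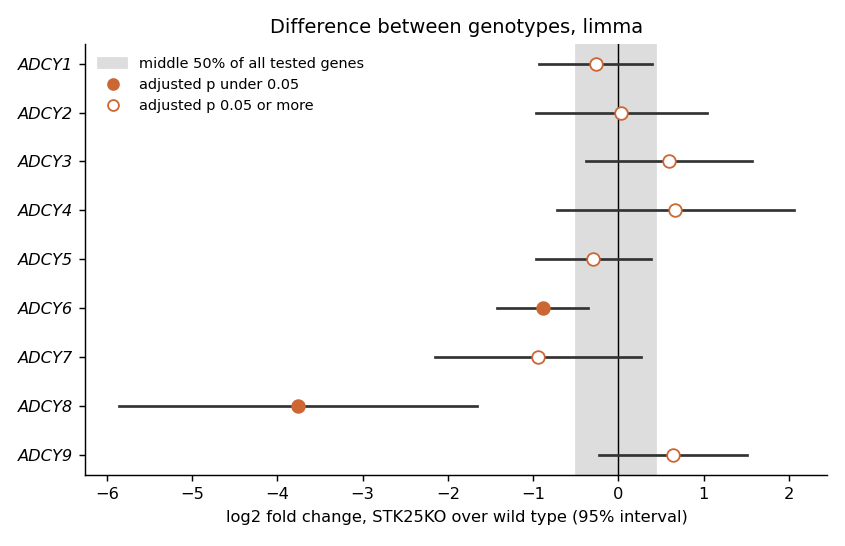
Log2 fold change of each member, STK25KO over wild type, with 95% intervals from limma; filled points passed the threshold and the grey band holds the middle 50% of all 15536 tested genes (-0.50 to 0.44). The intervals of ADCY6 and ADCY8 lie below 0 and those of the other 7 members cross it.

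The make-up of the cyclase pool was compared next, as each member's share of the summed per-kilobase level in a library. The sum was 1524 ± 385 normalized counts per kilobase in the wild type and 1145 ± 43.1 in the knockout (SD, n = 3 each). It was 1629, 1097 and 1846 in the wild-type libraries and 1096, 1174 and 1166 in the knockout, so the groups overlapped through wild-type replicate 2 (exact two-sided permutation p = 0.3). Without both libraries that stood apart the difference between the knockout and the wild type was -567. ADCY5 and ADCY6 together made up 83.1%, 79.0% and 81.7% of the wild-type pools and 72.4%, 78.2% and 77.9% of the knockout pools. That share was lower in every knockout library, by 5.10 percentage points on average (exact two-sided permutation p = 0.1; Benjamini-Hochberg adjusted p = 0.24 over 12 shares). Without both libraries that stood apart the difference was -4.37 percentage points.

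ADCY9 took 1.98%, 3.95% and 4.35% of the wild-type pools and 7.42%, 7.87% and 4.88% of the knockout pools, without overlap. The shares of ADCY3, at 1.31% ± 0.309 and 2.59% ± 0.690 (SD, n = 3 each), and of ADCY4, at 0.367% ± 0.107 and 0.796% ± 0.314 (SD, n = 3 each), did not overlap either, with the wild type first. ADCY8 went the other way, at 0.678%, 0.807% and 0.609% of the wild-type pools and 0.0749%, 0.163% and 0% of the knockout pools. Each of these 4 shares had an exact two-sided permutation p of 0.1, the smallest possible, and an adjusted p of 0.24. The levels of ADCY9, ADCY3 and ADCY4 themselves overlapped between the genotypes, so their shares parted only after division by the pool. How often other genes would part when divided by the same pool was not computed. ADCY6 went from 29.4% ± 3.62 to 20.9% ± 4.65 (SD, n = 3 each; exact two-sided permutation p = 0.2) and ADCY5 from 51.8% ± 4.72 to 55.2% ± 7.74 (exact p = 0.6, SD, n = 3 each). Shares within a library add to a fixed total, so these values are not independent of each other. With the longest transcripts ADCY5 and ADCY6 together held 85.4% ± 1.75 and 77.8% ± 1.03 (SD, n = 3 each), again without overlap.

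**Figure D4:**
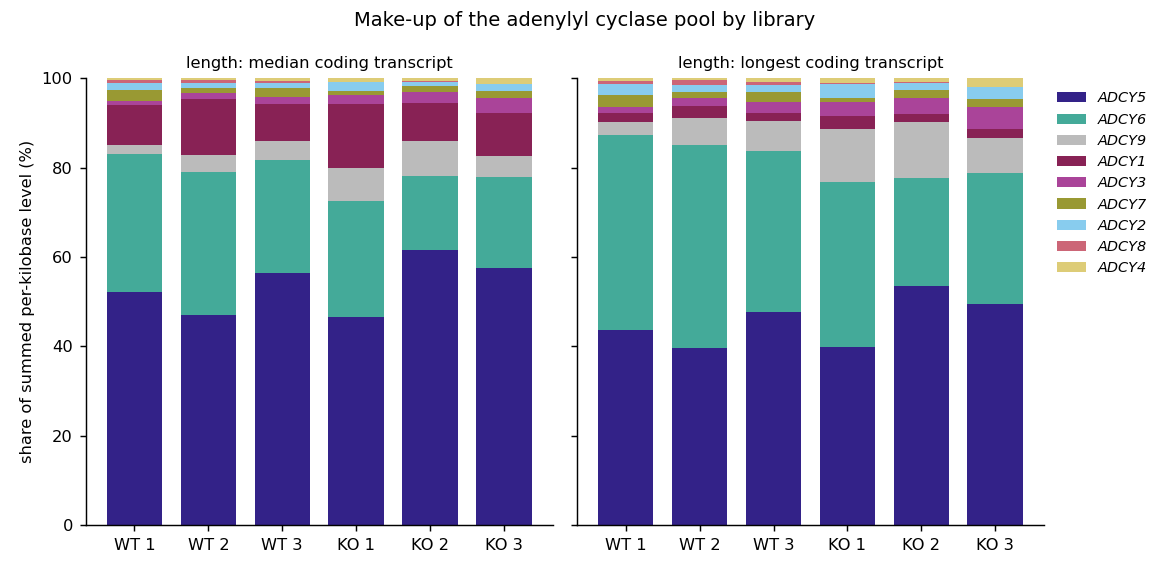
Share of each adenylyl cyclase in the summed per-kilobase level of each library (WT 1 to 3, wild type; KO 1 to 3, STK25KO), with the median (left) or longest (right) coding transcript as length. ADCY5 and ADCY6 fill most of every bar and their joint share is lower in each KO library; ADCY1 is larger on the left, where its length is 1693 bases rather than 12503.

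The genes nearest to the members on the chromosome were compared in the same fit. Only genes wholly outside a member were taken, so BRD7 and CENPO, which overlap one, were not among them. The 18 nearest such tested genes, 1 on each side of each member, had a median log2 fold change of 0.32. Of these 1 passed, against 12.8% of all genes: NFATC4, a transcription factor gene 30.6 kb from ADCY4, at -1.65 (SE 0.42, limma adjusted p = 0.0401). Beside ADCY6, CCNT1 was at 0.47 (limma adjusted p = 0.413) and CACNB3 at 0.30 (limma adjusted p = 0.681). Beside ADCY8, ASAP1, 337 kb away, was at 0.39 (limma adjusted p = 0.250) and EFR3A, 862 kb away, at 0.31 (limma adjusted p = 0.619). Neither called member had a neighbour that passed.

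Among all tested genes, those whose values over the 6 libraries were most like a called member were listed by the smallest root mean square difference of centred log2 values, as a description. For ADCY6 they were PBLD (0.090), ZNF589 (0.092) and TROAP (0.112). For ADCY8 they were FAS (0.313), LONRF2 (0.343) and HPN (0.377). FAS, a death receptor gene, had 133 normalized counts in the wild type and 15.5 in the knockout on average.

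RefSeq promoter sequence on GRCh38.p14 was at hand for 6 of the 9 members, ADCY1, ADCY2, ADCY3, ADCY4, ADCY5 and ADCY7, with 9 start sites between them. The 250 bases upstream of the outer of the ADCY5 starts in RefSeq, which lies 668 bases inside the outer end of the GENCODE gene, are shown as the promoter of the most abundant cyclase (chr3:123449091-123449340, minus strand, 5′ to 3′), with matches to GGGCGG or its reverse complement, the core of an SP1 site, in capitals.
ADCY5: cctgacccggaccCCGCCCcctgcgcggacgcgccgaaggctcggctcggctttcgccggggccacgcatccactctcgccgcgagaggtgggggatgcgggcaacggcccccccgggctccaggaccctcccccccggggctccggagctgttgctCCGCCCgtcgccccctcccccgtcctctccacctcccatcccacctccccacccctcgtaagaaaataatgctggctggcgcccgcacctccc
Of the 9 windows, 5 held GGGCGG on either strand, against 42.6% of 35116 windows of the same length over all genes. The full cAMP response element TGACGTCA, bound by CREB, was in 0 of the 9, against 1.65% of all windows. Its shorter core TGACG, which the full element contains, was in 4, in ADCY1, ADCY2 and ADCY3, against 21.2% of all. The windows of ADCY1 overlap, and the match is the same bases in both, 17 bases upstream of one start and 245 of the other. That site is therefore counted more than once among the 4. TGACTCA and TATAAA were in 0, against 4.203% and 10.7%, and CCAAT was in 2, of ADCY4 and ADCY7, against 32.0%. A match is letters in a window and no evidence of binding.

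The rest of the cAMP pathway was then compared from lists of 122 genes in 10 groups, of which 108 were tested. Of these 22 passed with limma (20.4%, against 12.8% of all genes), 8 as higher and 14 as lower, and their median log2 fold change was -0.07. edgeR called 19 of the list and DESeq2 36. Of the 22 genes called, 5, GUCY1A1, GNG11, ADRA2B, PTGER3 and PKIB, passed in all 6 fits that left out 1 library, and the other 17 were lost in at least 1 of them.

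On the input side, 8 of 11 tested receptors that couple to Gs had a fold change below 0. Of the 11, 3 passed, all as lower, and the list median was -1.92. Among the 8, ADRB3, at 35.1 ± 32.5 and 3.40 ± 4.82 normalized counts (SD, n = 3 each), passed the filter on low values through the wild type alone. Of the 5 receptors too low to test, PTGER4 (means 4.02 and 10.7), PTGIR (3.89 and 7.66) and ADRB1 were higher in the knockout. PTGER2 and ADCYAP1R1 were lower. GIPR, the receptor for the gut hormone GIP, went from 258 ± 61.4 normalized counts to 83.1 ± 10.5 (SD, n = 3 each; difference on the log2 scale -1.61, limma adjusted p = 0.0158). HTR4, the serotonin receptor of atrial muscle, went from 80.2 ± 7.46 to 12.02 ± 16.1 (SD, n = 3 each; -3.51, limma adjusted p = 0.0495) and passed in only 1 of the 6 fits without a library. ADRB1, the main beta receptor of adult heart, averaged 1.02 normalized counts in the wild type and 1.85 in the knockout and was not tested.

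Receptors that couple to Gi moved both ways, with 3 of 9 tested genes passing. PTGER3, a prostaglandin E2 receptor, rose from 99.03 ± 30.2 normalized counts to 637 ± 140 (SD, n = 3 each; difference on the log2 scale 2.70, SE 0.33, limma adjusted p = 0.00236). ADRA2B, an alpha-2 adrenergic receptor, fell from 286 ± 36.8 to 14.8 ± 10.4 (SD, n = 3 each; -4.48, SE 0.63, limma adjusted p = 0.00412). OPRK1, the kappa opioid receptor, was at 30.0 ± 6.90 and 1.98 ± 1.37 (SD, n = 3 each; limma adjusted p = 0.0188). It passed the filter through the wild type alone, with 1, 1 and 4 reads in the knockout libraries, so the size of the difference is uncertain. CHRM2, the muscarinic receptor that slows the heart, did not pass, at 1007 ± 181 and 1188 ± 54.1 (SD, n = 3 each; limma adjusted p = 0.498).

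GNAS, which encodes the Gs alpha subunit that activates every membrane cyclase, was at 52624 ± 2032 and 53768 ± 3313 normalized counts (SD, n = 3 each), or 0.03 on the log2 scale (limma adjusted p = 0.949). Among 9 alpha subunits and their chaperones 2 passed, both as higher. GNAL, the olfactory relative of Gs alpha, rose from 362 ± 121 to 934 ± 113 (SD, n = 3 each; 1.41, limma adjusted p = 0.0197), and GNAO1, a Gi-class subunit, from 33.1 ± 5.19 to 127 ± 51.0 (SD, n = 3 each; 1.84, limma adjusted p = 0.0292). GNAO1 was over the threshold in each of the 6 fits without a library, with adjusted p-values from 0.0508 to 0.112. Of 12 beta and gamma subunits 3 passed, all gamma subunits: GNG2 at 2.52 (limma adjusted p = 0.0143), GNG7 at -1.98 (0.0241) and GNG11 at -2.46 (0.00911).

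Among calcium and kinase inputs 1 of 12 passed: CAMK2D, the calmodulin kinase of heart muscle, at 1.42 (SE 0.32, limma adjusted p = 0.0273), in 1 of the 6 fits without a library. Of 8 scaffolds that hold cyclases in place 3 passed. POPDC2, a cAMP-binding membrane protein of striated muscle, rose from 9667 ± 487 normalized counts to 24478 ± 6586 (SD, n = 3 each; 1.31, limma adjusted p = 0.0104). AKAP12 was at 0.90 (limma adjusted p = 0.0160). CAV1, which coats caveolae, fell by 1.37 (SE 0.25, limma adjusted p = 0.0128).

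On the output side, 3 of 14 phosphodiesterases that break down cAMP passed, all as lower, and the list median was -0.91. That median includes PDE4A, at 32.6 ± 14.4 and 6.61 ± 6.37 normalized counts, and PDE11A, at 31.4 ± 16.8 and 5.09 ± 1.10 (SD, n = 3 each). Like PDE1C below, both passed the filter on low values through the wild type alone, and their part in the median was not tested. PDE1B, a calmodulin-stimulated member, went from 201 ± 29.7 normalized counts to 19.2 ± 24.9 (SD, n = 3 each; -4.10, limma adjusted p = 0.0183). Its relative PDE1C had 0, 3 and 0 reads in the knockout libraries. The knockout level was at least 12.3-fold lower than the wild-type mean of 40.2, a bound computed against 3 reads per library. That bound leaves out the wild-type spread, with 63.4, 49.5 and 7.65 normalized counts in wild-type replicates 1, 2 and 3. On the values themselves PDE1C passed with limma (adjusted p = 0.0425), and in 2 of the 6 fits without a library. The call was lost with edgeR (adjusted p = 0.0503), while DESeq2 kept it (adjusted p = 0.00269). PDE1C passed the filter on low values through the wild type alone. PDE4B was at -1.96 (limma adjusted p = 0.0384). PDE3A and PDE4D, which restrain cAMP in heart muscle, did not pass, at 0.27 (limma adjusted p = 0.880) and 0.45 (0.273).

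Of 16 effectors and exporters 3 passed. PKIB, an inhibitor of protein kinase A, rose by 2.65 (SE 0.21, limma adjusted p = 0.000414). ABCC4, which exports cAMP, was at -1.91 (limma adjusted p = 0.0399) and passed in 0 of the 6 fits without a library. Of 10 tested primary cilium genes, the setting in which ADCY3 is known, 0 passed with limma, edgeR or DESeq2 and 1 had an unadjusted p under 0.05.

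The other cyclases of the same enzyme class make cGMP, apart from the soluble adenylyl cyclase ADCY10. ADCY10 was low, at 24.4 ± 18.5 and 19.6 ± 14.9 normalized counts (SD, n = 3 each), and the tools differed in direction. limma gave 0.02 on the log2 scale (adjusted p = 0.994), edgeR -0.31 (adjusted p = 0.887) and DESeq2 -0.30 (adjusted p = 0.901). Of 7 tested genes of this list 1 passed. GUCY1A1, the alpha subunit of the guanylyl cyclase that nitric oxide activates, had 12479, 9211 and 11348 normalized counts in the wild type and 3182, 4437 and 4508 in the knockout. Every knockout library lay below every wild-type library, with a log2 fold change of -1.45 (SE 0.22, limma adjusted p = 0.00568). Its partner GUCY1B1, with which it forms the active enzyme, was at 500 ± 74.9 and 506 ± 133 (SD, n = 3 each; limma adjusted p = 0.996).

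**Figure D5:**
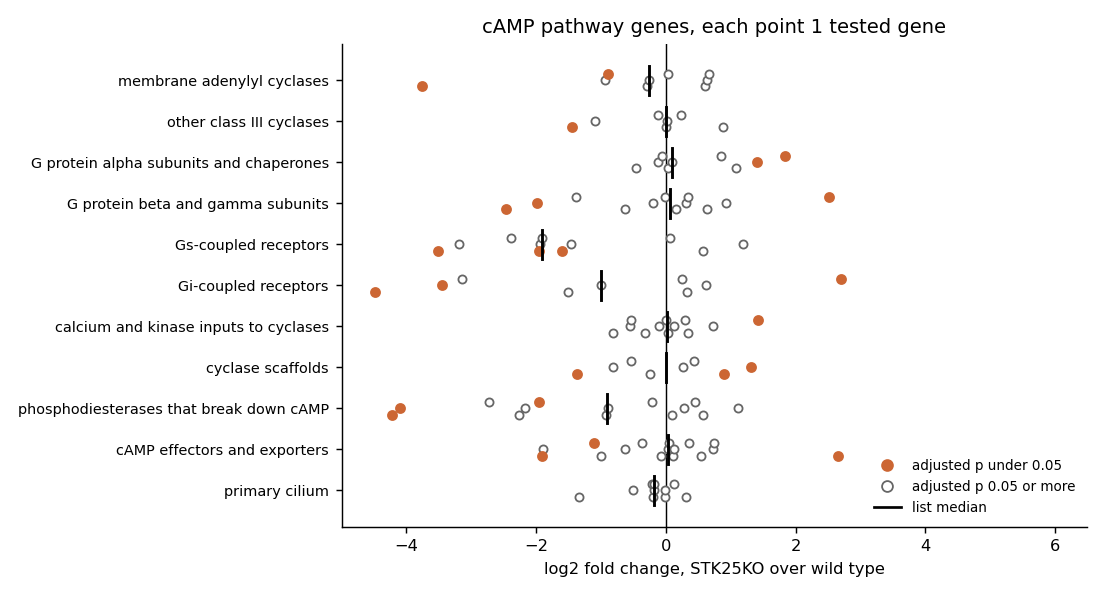
Log2 fold change, STK25KO over wild type, of each tested gene of the adenylyl cyclases and of 10 cAMP pathway lists; orange points passed the threshold and black bars are list medians. The median is lowest for receptors coupled to Gs, at -1.92, followed by receptors coupled to Gi at -0.996 and phosphodiesterases at -0.91. These medians include ADRB3, ADRA2C, OPRK1, PDE1C, PDE4A and PDE11A, which averaged under 10 in the knockout. They passed the filter on low values through the wild type alone, and their part in the order of the medians was not tested.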

How the data were processed

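Whole-transcriptome RNA of 6 libraries, 3 per genotype, was read from 1 table. The authors deposited a signal, headed as normalized counts. All values (100%, tolerance 0.001) were whole multiples of 1 step per library, so whole reads were recovered. The submitters' processing notes name bcl2fastq 2.19, kallisto 0.44.0, DESeq2 1.28.1 and GRCh38, with no role or order; if kallisto made the counts, the whole numbers are rounded estimates. The annotation and use of strand are not given in the sources used here. Columns were matched by the names the labels give.

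limma 3.58.1 (R 4.3.3; lmFit, eBayes with a trend, two-sided) was run on log2(value + 1) for the 15536 genes that averaged 10 or more, with Benjamini-Hochberg adjustment over them and a threshold of 0.05. For low genes, fold changes on this scale could be larger or smaller than those of edgeR. ADCY8 was at -3.76 with limma and -3.52 with edgeR, and PDE1B at -4.10 and -3.40. PDE1C, at -4.22 and -5.06, and OPRK1, at -3.44 and -3.80, went the other way. Exact two-sided permutation tests used scipy 1.17.1. edgeR 4.0.16 (quasi-likelihood) and DESeq2 1.42.0 were run on recovered reads. p-values measure the spread between these libraries. Other alternatives were the pseudocount, the filter, the scaling, eBayes without a trend, a block by replicate number, transcript length, and leaving out libraries. The scripts were tested on simulated data. Leaving out wild-type replicate 2 with knockout replicate 1 was chosen after seeing the data.

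Members and lists were chosen with earlier results of these data known. The genes named are all members, called list genes (at most 4 per list), STK25, the nearest tested genes on each side, and the 3 genes most like each called member; CENPO, BRD7, the marker genes and list genes that did not pass were chosen after their values were seen. Some called list genes are counted but not reported here by name. Lengths and positions are from GENCODE 29 on GRCh38. The labels mention no molecular identifiers, so floors cover counting error only.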

Additional observations from a re-analysis of the deposited data

How the results depend on the processing

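Over all genes 1982 passed. That count was 798 with the replicate block, 3210 with DESeq2, between 796 and 2181 when 1 library was left out, and 4483 without wild-type replicate 2 and knockout replicate 1. That last setting was chosen after seeing the data, and 3 cyclase genes passed in it. The number of cyclase genes that passed, 2, was 1 with a pseudocount of 0.1, with no filter, with a mean of at least 50, with quantile normalization, with eBayes without a trend and with edgeR, and 0 with the replicate block, where 2 had an unadjusted p under 0.05 with limma, edgeR without the block called 1 and DESeq2 2. Leaving out 1 library gave 0 to 2, and 0 came without wild-type replicate 1 or 3 or knockout replicate 3, where limma gave 2, 3 and 2 at an unadjusted p under 0.05. A mean of at least 50 left ADCY8 and ADCY4 untested. ADCY6 had an adjusted p of 0.0539 with no filter and 0.0808 with eBayes without a trend. The 22 pathway calls were 6 with the replicate block, 36 with DESeq2, between 5 and 22 when 1 library was left out, and 45 without both libraries that stood apart.

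The replicate numbers were not shown to pair the samples: same-numbered libraries had correlations of deviations of -0.23, -0.40 and 0.17, and not every library correlated best with its own number. The highest correlation, 0.45, was between wild-type replicate 2 and knockout replicate 1, so the libraries that stood apart deviated in part in the same direction. With the replicate block ADCY6 had an adjusted p of 0.117 and ADCY8 of 0.0791. The fold change of ADCY2 changed sign with equal upper quartiles (-0.011), equal totals (-0.24) and edgeR (-0.0016), without wild-type replicate 2 (-0.29), knockout replicate 1 (-0.15) or knockout replicate 3 (-0.054), and without both libraries that stood apart (-0.48); the highest value with 1 library left out was 0.31. Leaving out 1 library, the difference in share ran from -0.93 to 2.22 percentage points for ADCY1, reversed without knockout replicate 1, and from -0.23 to 0.65 for the class stimulated by beta-gamma subunits, reversed without wild-type replicate 2 or knockout replicate 3 (-0.16) and without both libraries that stood apart (-0.19). The fold changes of the other 8 members, the summed level and the ratio of ADCY5 to ADCY6 kept their direction in all alternatives run. The cause of these shifts was not tested. Depth limits ADCY8, ADCY4 and ADCY10 most, with at most 82, 51 and 53 reads in a library.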

Other observations

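ADCY10P1, a pseudogene of ADCY10 named here after its values were seen, had 97.5 ± 38.4 normalized counts in the wild type and 36.9 ± 15.96 in the knockout (SD, n = 3 each). The difference of -1.37 on the log2 scale (SE 0.50) did not pass (limma adjusted p = 0.118).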
